A study of Mus musculus with 9 samples.

Results

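The genes described here flank Thbs1, which encodes thrombospondin-1, a secreted protein of the extracellular matrix, on mouse chromosome 2. They are 59 of the 52183 genes in the deposited expression table, taken by name as genes within about 10 Mb of Thbs1. All 59 were found, 3 of them start at lower coordinates than Thbs1 and 56 at higher ones, and their starts lie 0.26 to 4.5 Mb from its start. Distances below run from start to start and are negative toward lower coordinates.

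The RNA came from endothelial cells, which line blood vessels, sorted by flow cytometry from the marrow of mouse long bones. Cells of 3 kinds of mice were compared, with 3 libraries each. These were control mice of 3 months, called young controls, control mice of 18 months, called aged controls, and mice of 18 months whose label is knockout of Thbs1. All 3 groups received an antibody to VE-cadherin, a junction protein of endothelium, by retro-orbital injection before sacrifice. No label names the strain, the part of Thbs1 that was altered, a promoter or Cre driver, or the breeding of the controls. No label ties each library to its own mouse either, so p-values here measure the spread between libraries, which may be technical.

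As background, an altered allele is passed on together with the DNA around it, because recombination seldom parts loci that lie close together. When an allele made in cells of a given strain is crossed to another strain, a stretch of the donor chromosome can remain around it, and genes in that stretch can then differ from those of control mice whatever the alteration itself does. For this reason genes near an altered locus are usually read on their own in knockout studies, and a difference from every control group, not only from the age-matched one, is the pattern of interest.

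Thbs1 went against the label. It averaged 21.6 FPKM ± 3.46 (SD, n = 3) in the libraries labelled knockout, against 0.887 ± 0.257 in the aged and 4.21 ± 0.331 in the young controls. FPKM is the number of fragments scaled to the exon length of a gene and the depth of the library. The mean was thus 24.4-fold that of the aged controls, and every library labelled knockout lay above all 6 controls. The level of the whole transcript does not say whether an altered exon was present. These libraries are called "labelled knockout" below for that reason, and every direction given rests on that label. Of 10 endothelial markers, 9 were abundant and Vwf measured 0.56 to 1.98 FPKM, and their summed level was 1874 to 1972 FPKM in the young, 1643 to 1858 in the aged and 1772 to 2023 in the labelled knockout libraries. Markers of B and plasma cells, mostly Igkc, summed to 4.29 to 394 FPKM in the young, 412 to 2388 in the aged and 3.26 to 1640 in the labelled knockout libraries, and their part in the results was not tested. The recovered depth was 22160000 to 24590000 fragments in the controls and 27230000 to 30410000 in the labelled knockout libraries, so depth moved with the label, and its part in the results was not tested. In bulk RNA, fewer cells of a type and less RNA per cell cannot be told apart.

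Of the 59 members, 47 averaged 1 FPKM or more over the 9 libraries and entered the test, which was limma on log2(FPKM + 1) with p adjusted over all 11796 tested genes and a threshold of 0.05. Members are named as called when they passed it. A difference on this scale understates the change of genes with low values. Against the aged controls, 10 of 47 members (21.3%) were called, where 4.79% of all tested genes were. Of these 10 members, 6 were higher (2.78% of all genes) and 4 were lower (2.01% of all genes). Against the young controls 4 members (8.51%) were called, with a background of 0.212%. Of these, 3 were higher (0.0848% of all genes) and 1 was lower (0.127% of all genes).

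The same 4 members, Tmem87a, Gm14137 and Trim69 with higher and Meis2 with lower levels, were called against both control groups in the same direction. That is 8.51% of the members and 0.161% of all tested genes, or 19 genes in all (0.0763% higher and 0.0848% lower). Both comparisons share the labelled knockout libraries. Against the mean of both control groups 9 members (19.1%) were called, 5 higher and 4 lower, with a background of 1.19% (0.754% higher and 0.432% lower). This count fell to 4 without labelled knockout replicate 1, and to 5 without the filter on low values, where Eif2ak4, Lcmt2, Ppip5k1 and Sord were no longer called. All 3 labelled knockout values lay beyond all 6 control values in 11 of 47 members (23.4%), against 5.82% of all tested genes, with 6 above (2.75% of all genes) and 5 below (3.07% of all genes). Between aged and young controls 3 members (6.38%) were called, which is close to the background of 3.99%. The 2 lower members are set against a background of 2.80% and the 1 higher member against 1.20%. The median absolute difference of the members was 0.19 on the log2 scale against the mean of both controls, and 0.12 over all tested genes.

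**Figure D1:**
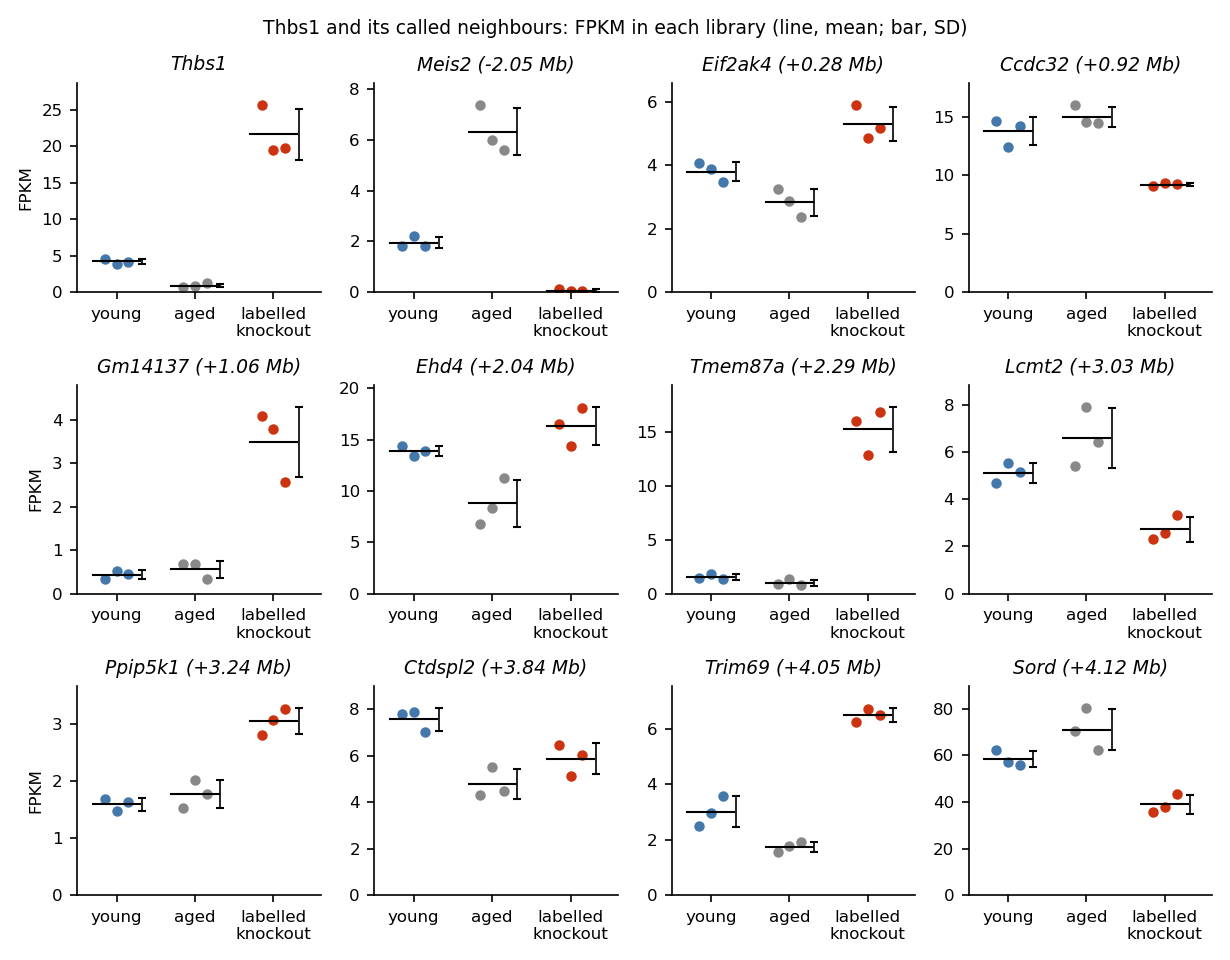
FPKM of Thbs1 and of the 11 members called in any comparison, 1 panel a gene in order of position, with each library as a point, the group mean as a line and the SD as a bar. Meis2 is near 0 in the labelled knockout libraries, Tmem87a and Gm14137 are under 2 FPKM in every control, and Ehd4 and Ctdspl2 are the panels in which the labelled knockout values meet those of a control group.

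Among the 10 tested members of transcription and chromatin (11 in all), 1 was called against the aged controls. This was Meis2 (ENSMUSG00000027210, GRCm38 chromosome 2, 115863064 to 116065839, minus strand, at -2.05 Mb), a homeodomain transcription factor that binds DNA together with Hox and Pbx proteins. Meis2 measured 1.81, 2.21 and 1.83 FPKM in the young controls, 7.37, 6.01 and 5.62 FPKM in the aged controls, and 0.11, 0.03 and 0.03 FPKM in the labelled knockout libraries. The groups do not overlap, and the order is aged, young, labelled knockout. The recovered fragments were 1659 to 1967 in the aged controls and 499 to 608 in the young, against 37, 11 and 10 in the labelled knockout libraries. The mean of 6.33 ± 0.919 (SD, n = 3) in the aged controls was 112-fold the mean of 0.0567 ± 0.0462 in the labelled knockout group, and the young mean of 1.95 ± 0.225 was 34.4-fold. On the log2 scale Meis2 fell by 2.79 ± 0.14 (SE) against the aged controls (limma, adjusted p = 7.95e-06) and by 1.48 ± 0.14 against the young (adjusted p = 0.001216). It was also the 1 member that rose from young to aged controls, by 1.31 ± 0.14 (adjusted p = 0.004899), a call lost without young control replicate 1 (adjusted p = 0.05207).

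Stromal, osteoblast and adipocyte markers also differed between the groups. Their summed level, mostly Cxcl12, was 64.1 to 72.9 FPKM in the young and 36.1 to 44.4 in the aged libraries. In the labelled knockout libraries it was 27.1 to 34.7, so that group was lowest for both this sum and Meis2. Cxcl12 alone measured 41.94 to 49.15 FPKM in the young, 22.8 to 32.64 in the aged and 19.67 to 22.91 in the labelled knockout libraries. Its aged and labelled knockout ranges overlap, as do those of Lepr. Adipoq measured 12.34 to 14.47 FPKM in the young, 5.53 to 6.72 in the aged and 3.33 to 4.55 in the labelled knockout libraries. These ranges do not overlap. Adipoq was called lower against the aged (limma, adjusted p = 0.03894) and the young controls (adjusted p = 0.00044). Among the controls the order was opposite, with the markers lower and Meis2 higher in the aged group. Of the 6 markers, Col1a1, Bglap and Pdgfra were under 1 FPKM in every library, and their part in the Meis2 values was not tested.

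Ctdspl2 (at 3.84 Mb), a phosphatase of the family that acts on the tail of RNA polymerase, was the other called member of this group. Its level was 7.82, 7.87 and 7.02 FPKM in young controls, 4.33, 5.53 and 4.48 in aged controls, and 6.46, 5.15 and 6.02 in labelled knockout libraries. Young controls were above all the others, and the aged and labelled knockout values overlap. It fell by 0.57 ± 0.12 on the log2 scale from young to aged (adjusted p = 0.03804), and no comparison with the labelled knockout group was called. Leaving out 1 library at a time ended that call in 6 of 9 cases. Bahd1 (at 0.79 Mb), which helps form heterochromatin, lay outside the control range without being called. It measured 8.66, 7.58 and 7.86 FPKM in the labelled knockout libraries, and the highest control value was 7.42 (adjusted p = 0.2729 against the mean of both controls). The other 7 tested members of the group were called in no comparison. They include Ino80, the ATPase of a chromatin remodeller, at 2.09 to 3.21 FPKM, and Trp53bp1, which takes part in the repair of DNA breaks, at 1.78 to 2.84 FPKM.

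Membrane traffic had 8 members, all tested, and held the member with the largest rise. Tmem87a (ENSMUSG00000033808, chromosome 2, 120355312 to 120404113, minus strand, at 2.29 Mb) encodes a protein that spans the membrane of the Golgi apparatus many times. Tmem87a measured 1.45, 1.81 and 1.31 FPKM in young controls, 0.89, 1.34 and 0.75 FPKM in aged controls, and 16.02, 12.87 and 16.83 FPKM in labelled knockout libraries. The lowest labelled knockout value was far above the highest control value, and the control groups overlap. In recovered fragments, the labelled knockout libraries held 2946 to 3450 and the controls 139 to 311. The mean of 15.2 ± 2.09 (SD, n = 3) was 15.3-fold that of the aged and 10.0-fold that of the young controls. Tmem87a rose by 3.03 ± 0.15 (SE) on the log2 scale against the aged (limma, adjusted p = 7.95e-06) and by 2.68 ± 0.15 against the young controls (adjusted p = 5.09e-05).

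Ccdc32 (ENSMUSG00000039983, chromosome 2, 119017779 to 119029393, minus strand, at 0.92 Mb) is needed to assemble the adaptor that links cargo to clathrin coats. Its values were 14.67, 12.39 and 14.24 FPKM in young, 15.98, 14.52 and 14.46 in aged and 9.06, 9.33 and 9.22 in labelled knockout libraries. The labelled knockout values were tightly grouped below all controls. Ccdc32 fell by 0.65 ± 0.09 against the aged controls (adjusted p = 0.006502), and the difference from the young, -0.53 ± 0.09, did not pass (adjusted p = 0.08277). Against the mean of both controls it was called (adjusted p = 0.01076), a call lost without labelled knockout replicate 1 or 3.

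Ehd4 (at 2.04 Mb), an ATPase of endosome recycling, had a different pattern. It measured 14.41, 13.42 and 13.89 FPKM in young, 6.74, 8.37 and 11.27 in aged and 16.50, 14.40 and 18.12 in labelled knockout libraries. The aged controls were below all other libraries, and the lowest labelled knockout value was under the highest young value. Ehd4 was called against the aged controls, at 0.85 ± 0.16 (adjusted p = 0.01904), and its difference from the young was 0.21 ± 0.16 (adjusted p = 0.7151). The call ended without labelled knockout replicate 1 or 3, without the filter on low values, and when the 2 groups were fitted alone, which also ended those of Eif2ak4 and Ppip5k1. The other 5 members of the group were not called in any comparison. Among them, Vps18 and Vps39, subunits of a complex that tethers vesicles to lysosomes, measured 2.33 to 5.08 and 7.97 to 10.53 FPKM, and the SNARE protein Snap23 measured 17.14 to 25.08 FPKM.

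RNA processing, translation and protein turnover had 11 members, of which 9 were tested, and 2 were higher and 1 lower against the aged controls. Trim69 (ENSMUSG00000033368, chromosome 2, 122160700 to 122179027, plus strand, at 4.05 Mb), a RING ubiquitin ligase of the tripartite motif family, was called against both control groups. It measured 2.48, 2.97 and 3.59 FPKM in young, 1.55, 1.78 and 1.90 in aged and 6.24, 6.74 and 6.51 in labelled knockout libraries. The 3 groups do not overlap, and the order is labelled knockout, young, aged. The labelled knockout mean of 6.50 ± 0.250 (SD, n = 3) was 3.73-fold the aged and 2.16-fold the young mean. Trim69 rose by 1.45 ± 0.12 (SE) against the aged (limma, adjusted p = 0.000644) and by 0.91 ± 0.12 against the young controls (adjusted p = 0.02026). With 1 library left out at a time, the call against the young controls ended in 5 of 9 cases. From young to aged Trim69 fell by 0.54 (adjusted p = 0.04501), and this call held in 1 of those 9 cases and in 3 of 10 other alternatives.

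Lcmt2 (ENSMUSG00000074890, chromosome 2, 121128307 to 121140653, minus strand, at 3.03 Mb) is a methyltransferase that helps make a modified base of phenylalanine transfer RNA. Lcmt2 stood at 4.70, 5.55 and 5.15 FPKM in young, 5.40, 7.93 and 6.45 in aged and 2.32, 2.56 and 3.33 in labelled knockout libraries. The labelled knockout values were below all controls, and the control groups overlap. It fell by 1.02 ± 0.15 against the aged controls (adjusted p = 0.006662) and was not called against the young, at -0.72 ± 0.15 (adjusted p = 0.1311). The call against the mean of both controls (adjusted p = 0.01544) was lost without young control replicate 2 or labelled knockout replicate 1.

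Eif2ak4 (ENSMUSG00000005102, chromosome 2, 118388618 to 118475234, plus strand, at 0.28 Mb) is the kinase that senses a lack of amino acids and slows translation, and of the tested members it starts nearest to Thbs1. It measured 4.06, 3.87 and 3.46 FPKM in young, 3.24, 2.87 and 2.37 in aged and 5.89, 4.85 and 5.19 in labelled knockout libraries. All labelled knockout values were above the controls, and the young controls were above the aged. Eif2ak4 rose by 0.73 ± 0.12 against the aged controls (adjusted p = 0.01173), a call lost without labelled knockout replicate 1 (adjusted p = 0.0547). Its difference from the young was 0.39 ± 0.12 (adjusted p = 0.3399). The call against the mean of both controls (adjusted p = 0.04062) ended in 6 of 9 cases when 1 library was left out. No other tested member of this group was called against a control group. Srp14, a subunit of the signal recognition particle, had the highest level of the 9, with 85.94 to 128.74 FPKM. Its aged values were above its young values, the labelled knockout values overlap both, and it was not called.

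The upstream sequences of 4 called members are shown as examples of what lies before genes that were higher or lower in the labelled knockout libraries, and they come from RefSeq on GRCm38.p6, where 57 of 59 members have an entry. The window is the 250 bases before the RefSeq start, the one nearest to the annotated start of the gene where RefSeq has several, shortened where an annotated exon begins, written 5′ to 3′ on the gene's strand. Capitals mark matches on either strand to any of 4 motifs, and no matches overlap in these windows. The GC box was searched as GGGCGG and the box named for its letters as CCAAT. The TATA box was searched as TATAAA, and the core of the sites of ETS factors was searched as CCGGAA. The sequences of Gm14137 (chr2:119174259-119174508, plus strand), Trim69 (chr2:122160458-122160699, plus strand), Lcmt2 (chr2:121140699-121140948, minus strand) and Eif2ak4 (chr2:118388367-118388616, plus strand) follow.
Gm14137: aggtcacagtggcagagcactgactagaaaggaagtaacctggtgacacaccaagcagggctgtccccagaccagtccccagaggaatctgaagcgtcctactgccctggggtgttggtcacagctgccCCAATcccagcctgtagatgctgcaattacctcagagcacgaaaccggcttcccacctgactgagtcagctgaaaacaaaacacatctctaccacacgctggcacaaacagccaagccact
Trim69: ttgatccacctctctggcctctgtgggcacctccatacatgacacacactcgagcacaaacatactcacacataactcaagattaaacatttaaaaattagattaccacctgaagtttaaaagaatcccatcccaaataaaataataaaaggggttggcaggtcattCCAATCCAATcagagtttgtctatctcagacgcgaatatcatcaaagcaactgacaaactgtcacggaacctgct
Lcmt2: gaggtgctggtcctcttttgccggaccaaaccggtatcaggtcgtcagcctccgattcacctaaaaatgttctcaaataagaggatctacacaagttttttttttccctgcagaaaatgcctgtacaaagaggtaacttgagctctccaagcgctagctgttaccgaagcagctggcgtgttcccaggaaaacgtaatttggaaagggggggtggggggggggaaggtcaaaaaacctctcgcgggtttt
Eif2ak4: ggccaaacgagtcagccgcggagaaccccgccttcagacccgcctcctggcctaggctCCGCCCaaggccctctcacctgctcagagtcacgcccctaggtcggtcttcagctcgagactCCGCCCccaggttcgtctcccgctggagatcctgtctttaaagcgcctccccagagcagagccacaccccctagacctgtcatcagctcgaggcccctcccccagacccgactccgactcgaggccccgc
Gm14137 has 1 match to the CCAAT box and 4 CpG, and Trim69 has 2 adjoining matches to the CCAAT box and 4 CpG. Eif2ak4 has 2 matches to the GC box and 18 CpG, against a median of 6 CpG over all 32851 promoters. Lcmt2 has 10 CpG and none of these letters in this window, which lies in an intron of Adal. Gm14137 and its window lie inside the body of the member Dnajc17, on the opposite strand. Trim69 and its window lie in the same way inside the member Patl2. The windows as printed hold no annotated exon. Over all promoters, 33.8% hold a CCAAT box, 32.7% a GC box, 12.4% a TATA box and 12.0% the ETS core. The bases before the start of Tmem87a lie within exons of its neighbour Ganc and are not shown. The other called members are not shown either. In Sord the window holds 160 bases with no match to the 4 motifs.

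All 7 members of metabolism and mitochondria were tested, and 1 was called. Sord (ENSMUSG00000027227, chromosome 2, 122234749 to 122265340, plus strand, at 4.12 Mb) encodes sorbitol dehydrogenase, which turns sorbitol into fructose in the polyol pathway. Sord measured 62.54, 57.17 and 55.72 FPKM in young, 70.67, 80.24 and 62.55 in aged and 35.66, 37.99 and 43.43 in labelled knockout libraries. All labelled knockout values were below all controls. Sord fell by 0.85 ± 0.11 against the aged controls (limma, adjusted p = 0.005497), and its difference from the young was -0.57 ± 0.11 (adjusted p = 0.1184). The call against the mean of both controls (adjusted p = 0.01236) was lost without labelled knockout replicate 1. Of its 50-base windows, 31.3% also occur in the copy Gm6652 on chromosome 1, so its level is uncertain by what was counted there, and Gm6652 itself averaged 0.58 FPKM in the young, 0.61 in the aged and 0.197 in the labelled knockout libraries.

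Ivd (at 0.75 Mb), an enzyme of leucine breakdown, lay below the control range without being called. It measured 5.44, 7.08 and 6.47 FPKM in the labelled knockout libraries, and the lowest control value was 7.72 (adjusted p = 0.09656 against the aged controls). Gatm (at 4.5 Mb), which catalyses the first step of creatine synthesis, was among the most abundant members. Its labelled knockout values of 72.97, 132.55 and 95.93 FPKM spread across the aged range of 76.26 to 101.72 FPKM, and it was not called. Chst14, Ndufaf1, Ganc and Adal were not called either.

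Signalling had 14 members, of which only 7 passed the filter, and 1 was called. Ppip5k1 (ENSMUSG00000033526, chromosome 2, 121310561 to 121355396, minus strand, at 3.24 Mb) makes inositol pyrophosphates. It measured 1.68, 1.47 and 1.63 FPKM in young, 1.52, 2.02 and 1.78 in aged and 2.81, 3.08 and 3.26 in labelled knockout libraries. The labelled knockout values were all higher, and the control groups overlap. Its difference was 0.55 ± 0.12 against the aged (adjusted p = 0.03558) and 0.64 ± 0.12 against the young controls (adjusted p = 0.1107). The call against the aged controls ended in 7 of 9 cases with 1 library left out. Spred1 and Rasgrp1, an inhibitor and an activator of Ras signalling, start at -0.99 and -0.77 Mb, between Meis2 and Thbs1, and neither was called. Rasgrp1 measured 11.84, 10.71 and 11.16 FPKM in young controls, 5.11 to 8.24 in aged and 4.81 to 8.03 in labelled knockout libraries. Its young values were above all others, and its adjusted p of 0.05256 for aged against young was the lowest among the 36 tested members that were called nowhere.

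The centrosome, chromosome and cytoskeleton group had 4 members, and the 2 that were tested, the augmin subunit Haus2 and the gamma-tubulin complex subunit Tubgcp4, were not called. Of the 4 members with no settled role, all tested, 1 was called. Gm14137 (ENSMUSG00000055926, chromosome 2, 119174509 to 119177575, plus strand, at 1.06 Mb) is a predicted gene whose promoter is printed above. Gm14137 measured 0.33, 0.53 and 0.45 FPKM in young, 0.68, 0.67 and 0.33 in aged and 4.10, 3.80 and 2.57 in labelled knockout libraries. Every labelled knockout value was far above the controls, which overlap. The recovered fragments were 215 to 354 in the labelled knockout libraries and 23 to 47 in the controls. The labelled knockout mean was 6.23-fold the aged and 7.99-fold the young mean. Gm14137 rose by 1.52 ± 0.18 (SE) against the aged (limma, adjusted p = 0.002985) and by 1.63 ± 0.18 against the young controls (adjusted p = 0.004933). It passed the filter through the labelled knockout libraries alone, and both calls held without any filter and in all 9 cases with 1 library left out.

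**Figure D2:**
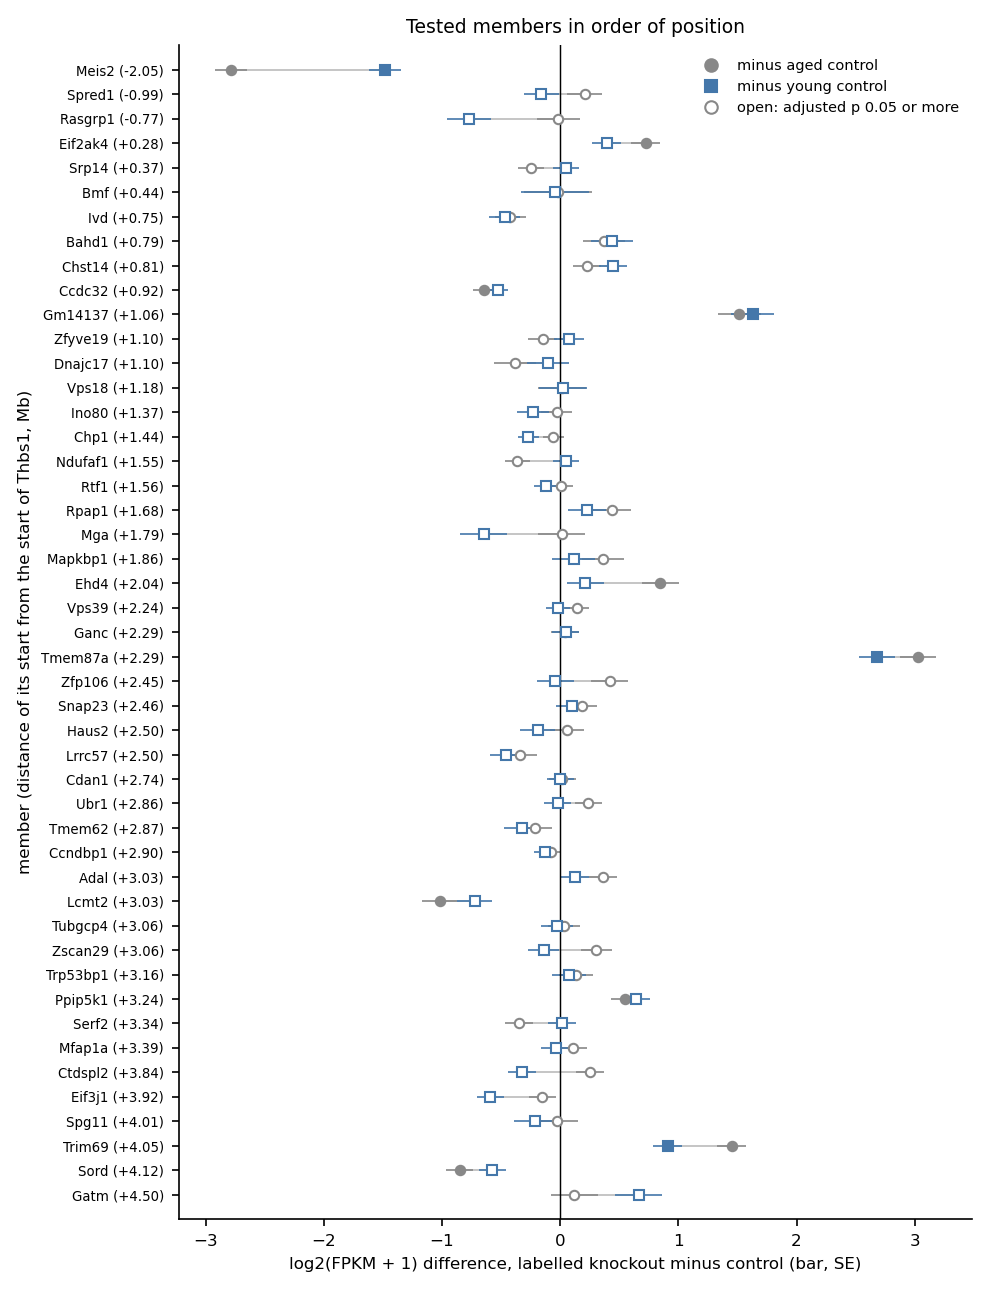
Difference of the labelled knockout group from the aged (circles) and the young controls (squares) on the log2(FPKM + 1) scale for the 47 tested members in order of position, with the SE as a bar and filled symbols where adjusted p was under 0.05. Filled pairs stand at Meis2, Gm14137, Tmem87a and Trim69, and circles alone are filled at Eif2ak4, Ccdc32, Ehd4, Lcmt2, Ppip5k1 and Sord.

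The 12 members below the filter had values of 0 to 2.61 FPKM. In 3 of them a group mean reached 1 FPKM. These were Oip5, a protein of centromere assembly, with 1.35 ± 1.11 (SD, n = 3) in the aged controls, the receptor kinase Tyro3 with 1.06 ± 0.375 in the labelled knockout libraries, and the kinase Ttbk2 with 1.06 ± 0.178 in the young controls. No statement is made on the other 9 beyond their low level.

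Several members start back to back on opposite strands a short way apart, so the ratio of such a pair in each library compares neighbours at nearly the same place. Tmem87a and Ganc start 217 bases apart. The log2 ratio of Tmem87a to Ganc was -0.57, -0.28 and -0.53 in young controls, -0.94, -0.58 and -0.91 in aged controls, and 2.34, 2.03 and 2.16 in labelled knockout libraries. The ratio is thus inverted, while Ganc, a glucosidase, kept to 2.29 to 2.99 FPKM in all 9 libraries. Lcmt2 and Adal, an adenosine deaminase-like enzyme, start 225 bases apart. Their ratio was 0.48, 0.57 and 0.35 in young, 0.88, 1.13 and 0.99 in aged and -0.55, -0.34 and -0.26 in labelled knockout libraries. In both pairs the ratio of every labelled knockout library lay beyond all controls and had the opposite sign.

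Lrrc57 and Haus2, 137 bases apart, also stood outside the control range. Their ratio was 0.68 to 1.03 in the labelled knockout libraries and 1.13 to 1.51 in the controls, and neither gene was called. For the other 3 pairs, Dnajc17 with Zfyve19, Zscan29 with Tubgcp4 and Mfap1a with Wdr76, the labelled knockout values overlap those of the controls. The ratio of Zscan29 to Tubgcp4 was higher in every young than in every aged control. The strand setting of the counting is not given in the sources used here. Tmem87a shares 209 exon bases with Ganc (2.8% of its exons) and Lcmt2 226 with Adal (6.7%), and fragments from those bases cannot be assigned to a strand without it.

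**Figure D3:**
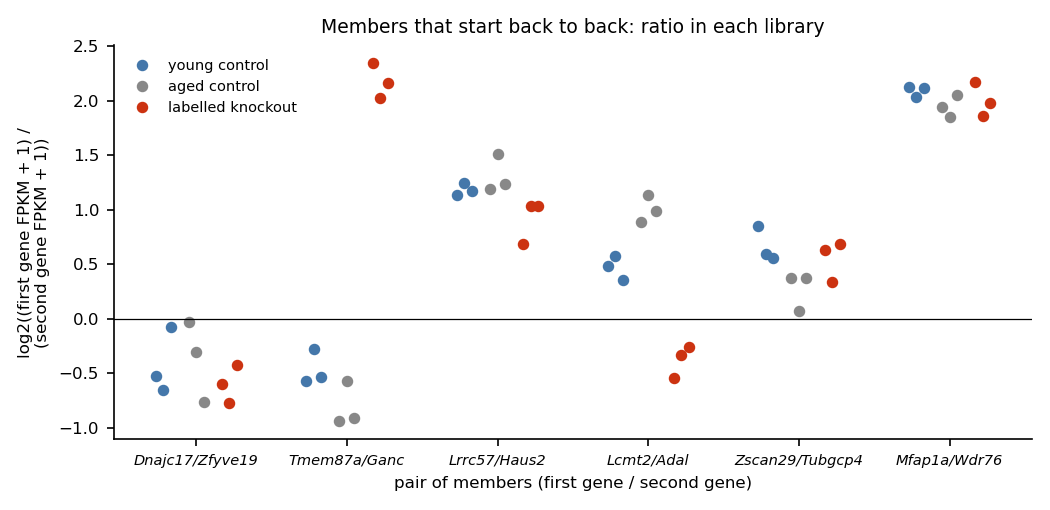
Log2 ratio of the first to the second gene, each as FPKM + 1, for the 6 pairs of members that start back to back, with 1 point a library and colours for the groups. Tmem87a/Ganc and Lcmt2/Adal change sign in the labelled knockout libraries, and in Dnajc17/Zfyve19, Zscan29/Tubgcp4 and Mfap1a/Wdr76 the labelled knockout points overlap those of the controls.

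The members are not all genes of the interval. Within 10 Mb of Thbs1, itself left out, the table holds 406 genes, of which 117 were tested: 47 members and 70 others. Of the 70 others, 14 (20%) lay outside the control range and 2 (2.86%) were called against both control groups. Values beyond the controls were thus not confined to the members. Calls were less frequent among the others, but the members start within 4.5 Mb of Thbs1 and the others spread over the whole interval. From 0 to 2 Mb, 18 of the 28 tested genes were members. Of the 3 genes called against both control groups there, Gm14137 was the only member. Membership and distance were thus not separated in these shares. Against the mean of both controls 4 others (5.71%) were called, against 19.1% of the members. Against the aged controls 6 others (8.57%) were called, against 21.3% of the members. Over all 117 genes, 21.4% lay outside the range, against 7.21% of the 804 tested genes on the rest of chromosome 2 and 5.54% of the 10874 on other chromosomes. Called against the mean of both controls were 11.1%, 1.62% and 1.04% of these sets. The difference between these shares was not tested, since neighbouring genes are not independent.

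The 2 others called against both control groups were Gchfr and Gm14207, and of these only Gchfr lies next to a called member. Gchfr, which restrains the enzyme that starts tetrahydrobiopterin synthesis, starts at 1.06 Mb like Gm14137, and its body ends before that gene begins. Gchfr measured 28.67, 28.89 and 33.82 FPKM in young, 47.37, 37.61 and 41.56 in aged and 78.47, 99.94 and 90.39 in labelled knockout libraries, a rise of 1.07 ± 0.12 against the aged (adjusted p = 0.002627) and 1.52 ± 0.12 against the young controls (adjusted p = 0.00044). Gm14207, a predicted gene at 1.21 Mb, was lower, with 0.88, 1.68 and 1.99 FPKM in labelled knockout libraries and 4.15 to 8.73 in the controls. Genes with higher and with lower levels thus both occur in the interval.

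**Figure D4:**
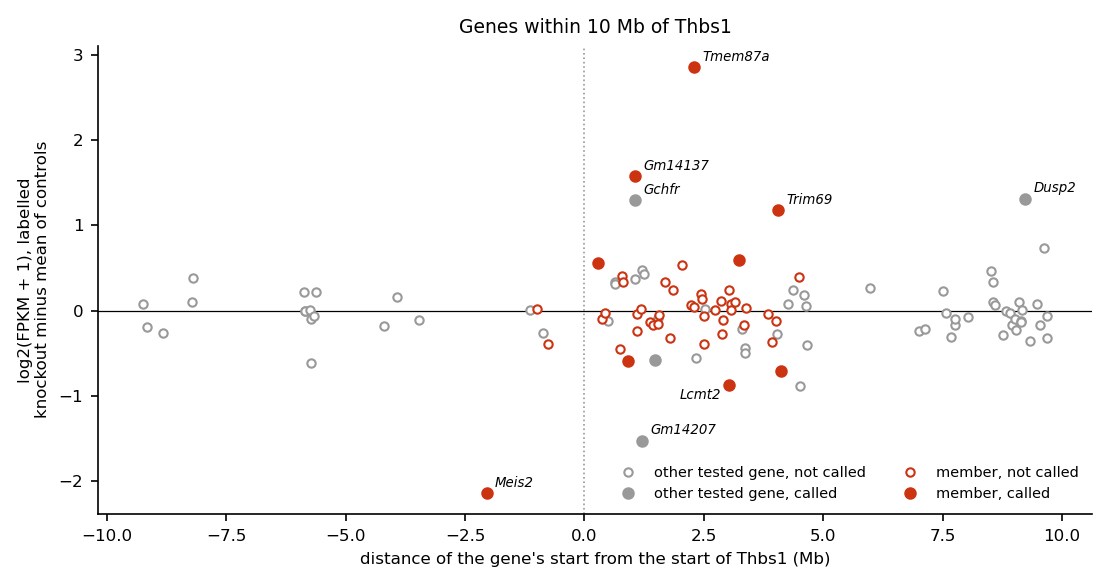
Difference of the labelled knockout group from the mean of both control groups on the log2(FPKM + 1) scale against the distance from Thbs1, for the 47 tested members (red) and the 70 other tested genes (grey), filled where adjusted p was under 0.05. Filled points lie mostly between 0 and 5 Mb, on both sides of the zero line.

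By distance, the share of tested genes outside the control range was 39.3% of 28 genes from 0 to 2 Mb, 18.5% of 27 from 2 to 4 Mb, 25% of 12 from 4 to 6 Mb, 14.3% of 7 from 6 to 8 Mb and 9.09% of 22 from 8 to 10 Mb. The bins at lower coordinates held 3 to 9 tested genes each, with 0 of 4 outside from -2 to 0 Mb, 1 of 3 from -4 to -2, 1 of 9 from -6 to -4 and 1 of 5 from -10 to -8 Mb. On the side of lower coordinates Meis2 was the 1 gene within 10 Mb called against the mean of both controls, where 21 genes were tested. In bins of 10 Mb along chromosome 2, the share was 14.3% from -10 to 0 Mb, 22.9% from 0 to 10, 18% from 10 to 20 and 18.5% from 20 to 30 Mb. In the other bins it ran from 0 to 11.1%. The raised share outside the range thus went on past the members, to 30 Mb above Thbs1, and was not tested. Against the mean of both controls 4.92% of 61 genes were called from 10 to 20 Mb and 11.1% of 27 from 20 to 30 Mb. Against both control groups 0 of the 61 and 1 of the 27 were called. That gene was Snx5, a sorting nexin at 26.16 Mb, with 25.65 to 28.75 FPKM in labelled knockout libraries and 53.30 to 88.25 in controls.

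**Figure D5:**
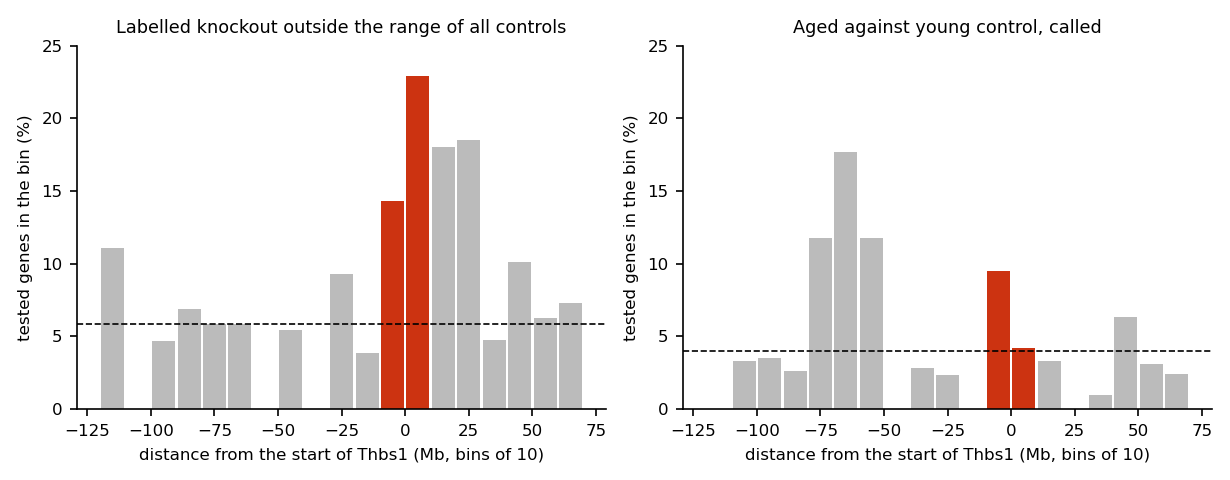
Percent of tested genes in bins of 10 Mb along chromosome 2 that lie outside the control range in the labelled knockout libraries (left) and that were called between aged and young controls (right), with the percent over all tested genes as a dashed line and the bins within 10 Mb of Thbs1 in red. On the left the 4 bins from -10 to 30 Mb stand at 14.3% to 22.9%. On the right the bin from 0 to 10 Mb stands near the line. The bin from -10 to 0 Mb, with 2 of 21 genes called, stands above it.

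Of the 19 genes called against both control groups anywhere in the genome, 8 lie on chromosome 2: Thbs1, the 4 members, Gchfr, Gm14207 and Snx5. Chromosome 2 held 922 of the 11796 tested genes. Outside the interval, 1 of its 804 tested genes (0.124%) was called in this way, close to the 0.101% of genes on other chromosomes. Which allele or strain of DNA these libraries carry at the members was not analysed here, and whether the differences come from DNA linked to the altered allele, from Thbs1 itself or from another difference between the groups cannot be told apart in this design.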

How the data were processed

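RNA of sorted marrow endothelial cells was measured in 9 libraries, 3 a group, with groups taken from the labels. Per the labels' protocols, libraries were made with the SMART-Seq v4 low-input kit. The authors deposited a table of FPKM with 52183 genes. The submitters' processing notes name FastQC 0.11.5, STAR and edgeR, and the builds GRCm38 and mm10 without a role. For counting rules, strand setting and reads with several matches, the steps were not given in the sources used here. All 52183 gene identifiers matched GENCODE M21 on GRCm38, the source of positions and exon lengths. Every column had a sample.

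Values were tested as log2(FPKM + 1) with limma 3.58.1 in R 4.3.3, with 9 libraries in the model, 1 coefficient for each group, 6 residual degrees of freedom and a trended eBayes. Genes averaging 1 FPKM or more were kept (11796), with Benjamini-Hochberg adjustment and a threshold of 0.05. The scripts were tested on simulated data. The members and lists were chosen with earlier results of these data known.

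Values in every library are given for members called in any comparison. Untested members are named where a group mean reached 1 FPKM, and other genes where they were called against both control groups within 10 Mb of Thbs1 or elsewhere on chromosome 2. Ivd, Bahd1, Gatm, Rasgrp1 and the other uncalled members, and the copies described at the end, were picked with their values in view.

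The depth of a library follows from the deposited FPKM. Low values of genes with 60 to 400 exon bases came out as whole fragments, to within 0.1, in 99.53% to 99.8% of cases (857 to 1476 values a library). No count test was used for the results. Shared sequence was counted as 50-base windows of a gene's transcripts that occur in another gene. Deviations of same-numbered libraries from their group means had correlations of -0.129 to 0.124, and those of different-numbered libraries -0.213 to 0.173. No pairing by replicate number was seen, but with 3 libraries a group this check cannot exclude it.

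Alternatives were a pseudocount of 0.1 or 5, genes of any level, genes averaging 5 FPKM or more, median-ratio scaling, quantile normalization, robust eBayes, only the groups compared, a block for the replicate number, a threshold of 0.1, limma voom on recovered fragments, and each library left out. Plots were made in Python 3.11.15 with matplotlib 3.10.9.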

Additional observations from a re-analysis of the deposited data

How the results depend on the processing

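The count of members called between aged and young controls, 3 as reported, was 1 with no filter on low values, 1 with the replicate number as a block and 10 at a threshold of 0.1. With a mean of at least 5 FPKM, which leaves fewer members to test, 4 members were called against the aged controls (10 as reported), 1 against the young (4), 3 against the mean of both (9), 1 against both groups (4), and 5 lay outside the control range (11). Against the mean of both controls 5 were called with no filter. The replicate block gave 9, 4, 8 and 4 members against the aged, the young, the mean of both and both groups, and the compared groups alone gave no value for the mean of both. Leaving out 1 library gave 0 to 7 members between aged and young (lowest without young control replicate 1), 7 to 10 against the aged, 3 to 4 against the young, 4 to 11 against the mean of both (lowest without labelled knockout replicate 1), 3 to 4 against both groups and 11 to 15 outside the range. All other counts stayed within 1.5 times, and no called member changed sign. Meis2, Tmem87a and Gm14137 kept their calls against both control groups in every alternative that tested them and in all 9 fits with a library left out, and Trim69 lost its call against the young controls without the filter and in 5 of 9. The lowest members limit what depth can show: Meis2 rests on 10 to 37 fragments in the labelled knockout libraries.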

Other observations

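Some members have near-identical copies, nearby or on another chromosome, and the copies did not always move with them. Eif3j1, a subunit of a translation initiation factor, shares 50.9% of its 50-base windows with other genes and 36.6% with Eif3j2 on chromosome 18. Eif3j1 measured 4.77, 4.54 and 5.11 FPKM in young, 3.58, 3.41 and 2.87 in aged and 3.26, 2.82 and 2.51 in labelled knockout libraries, and it was called in no comparison. Eif3j2 measured 0.12 to 0.19 FPKM in all 6 controls and 4.91, 2.32 and 3.38 in the labelled knockout libraries, and it was called against both control groups (limma, adjusted p = 0.001576 and 0.004913). Like Gm14137, Eif3j2 passed the filter through the labelled knockout libraries alone, which limits the weight of these calls. Mfap1a, a spliceosome protein, shares 49.9% of its windows with Mfap1b. The labelled knockout values of Mfap1a (at 3.39 Mb), 5.62, 4.16 and 5.87 FPKM, overlap those of both control groups. Mfap1b, its close neighbour at 3.36 Mb, is among the other tested genes of the interval that lay outside the control range. It measured 6.96 to 8.59 FPKM in labelled knockout libraries and 9.68 to 12.55 in controls without being called (limma, adjusted p = 0.08364 against the mean of both controls).

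Pcna, the sliding clamp of DNA replication, lies on chromosome 2 and was not called, with 46.03 to 47.59 FPKM in labelled knockout libraries and 30.51 to 57.52 in controls. Pcna-ps2, a copy on chromosome 19 that shares 63.8% of its windows with Pcna, measured 0.49 to 1.40 FPKM in controls and 21.87, 22 and 19.89 in the labelled knockout libraries. Fragments that match both members of such a pair can be counted in either, by rules not given in the sources used here.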
